A study of Homo sapiens with 6 samples.

Results

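The DLGAP1 gene lies on chromosome 18 at chr18:3496032-4455307 (GRCh38), spans 959276 bp, and contains DLGAP1-AS1 and DLGAP1-AS2, which are long non-coding RNA genes transcribed from the other strand. Accessible-chromatin peaks were taken where they overlapped a window of 970 kb that holds the gene, its antisense genes and a few kb past either end, and each was placed against the ends of the members DLGAP1, DLGAP1-AS1 and DLGAP1-AS2. Joining peaks of the 6 lists that overlap by at least 1 bp gave 264 regions in this window, of 507440 in all. The window held 90, 95 and 68 peaks in silenced replicates 1 to 3 and 92, 48 and 94 peaks in control replicates 1 to 3, and values by library stand in this order throughout.

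The libraries were made by ATAC-seq, in which a transposase cuts and tags open DNA, from NCI-H1703, an established line of human lung squamous cell carcinoma. In 3 libraries, titled ASO, DLGAP1-AS2 had been silenced, and 3 libraries, titled NC, came from control cells. Each used 10000 to 50000 cells and paired reads of 150 bases, per the labels. The series title links DLGAP1-AS2 to phosphatidic acid synthesis and to YAP, a transcriptional co-activator, and the comparison of the groups addresses chromatin accessibility after its silencing. The labels give no time, dose or agent of silencing beyond these titles, and they do not say what the control cells received. All libraries come from 1 line, and the labels do not say that they come from separate cultures, so the p-values measure only the spread between these libraries, which may be technical. The lists carry no RNA measurement, so the extent of silencing is not shown by them. A bulk library also cannot tell a site open in more cells from a site more open in each cell.

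DLGAP1, also called SAPAP1 or GKAP, is a scaffold protein of the postsynaptic density, the protein layer under excitatory synapses. It binds the guanylate kinase domain of PSD-95 and related DLG proteins and connects them to SHANK proteins, which in turn bind HOMER. Antisense RNA genes lie on the strand opposite a host gene and often start inside it from promoters of their own. ATAC-seq signal has no strand, so a peak inside DLGAP1 cannot be assigned to DLGAP1 or to the antisense gene that overlaps it.

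The promoters of 3 antisense genes, DLGAP1-AS1, DLGAP1-AS2 and DLGAP1-AS6, overlapped a peak in all 6 libraries, and their promoter sequences are shown because these are the start sites that the peaks bear on. The sequences come from RefSeq (GRCh38.p14, plus strand, 5′ to 3′, from 250 bases before to 50 bases from the start), and capitals mark matches to TGANTCA, the site bound by AP-1 factors such as FOS and JUN. They cover chr18:3593864-3594163, chr18:3603487-3603786 and chr18:3652780-3653079.
DLGAP1-AS1: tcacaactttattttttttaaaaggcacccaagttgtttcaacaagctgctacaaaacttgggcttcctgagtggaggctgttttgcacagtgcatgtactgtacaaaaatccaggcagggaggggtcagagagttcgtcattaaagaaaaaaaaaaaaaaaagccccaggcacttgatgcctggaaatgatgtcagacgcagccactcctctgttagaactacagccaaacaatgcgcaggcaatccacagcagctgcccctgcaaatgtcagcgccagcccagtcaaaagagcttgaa
DLGAP1-AS2: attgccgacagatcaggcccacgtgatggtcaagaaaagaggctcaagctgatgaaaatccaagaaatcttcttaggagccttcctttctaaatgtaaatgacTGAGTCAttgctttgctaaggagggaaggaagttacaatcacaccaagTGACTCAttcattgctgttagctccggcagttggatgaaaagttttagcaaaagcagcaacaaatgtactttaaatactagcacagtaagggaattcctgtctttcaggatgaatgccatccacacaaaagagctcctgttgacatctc
DLGAP1-AS6: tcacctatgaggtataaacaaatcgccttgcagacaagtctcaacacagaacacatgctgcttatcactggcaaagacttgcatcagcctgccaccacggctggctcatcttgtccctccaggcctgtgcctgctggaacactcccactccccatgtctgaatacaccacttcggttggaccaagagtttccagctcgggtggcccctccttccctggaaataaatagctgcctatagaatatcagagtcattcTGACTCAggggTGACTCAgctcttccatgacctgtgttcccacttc

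The DLGAP1-AS2 promoter held 2 such matches, TGAGTCA beginning 147 bases before the start and TGACTCA beginning 99 bases before it. The DLGAP1-AS6 promoter held 2 copies of TGACTCA, 4 and 15 bases after the start shown. A second listed DLGAP1-AS6 start lies at position 3653114, and the same copies begin 80 and 69 bases before that one. The DLGAP1-AS1 promoter held none. Among 34943 promoters of this length in the table, searched on both strands, 7.72% held at least 1 match and 0.518% held 2 or more. A match describes these letters and is not evidence of binding.

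The other motifs searched on both strands were GGGCGG, the GC box bound by SP1, present in 44.9% of all promoters of this length, and CCAAT, bound by NF-Y, in 34.6%. TATAAA, the TATA box, was in 11.6%, GGAATG, the core bound by TEAD factors, the DNA-binding partners of YAP, in 14.04%, and TGACGTCA, the cyclic AMP response element, in 1.84%. No match to these overlapped a match to TGANTCA in the promoters shown. The table lists 10 promoters inside the window, of which the 2 for DLGAP1-AS6 overlap. The GC box, the TEAD core and the cyclic AMP response element occurred in none of them. TATAAA occurred in the DLGAP1-AS6 promoter shown, in that of the DLGAP1 start at 3845358 and in that of LOC124904239. CCAAT occurred in the promoter of the second DLGAP1-AS6 start, in that of the DLGAP1 start at 3874760 and in that of DLGAP1-AS4. The GC content was 46.0% for DLGAP1-AS1, 42.0% for DLGAP1-AS2 and 51.7% for DLGAP1-AS6, against a median of 58.7% over all promoters in the table.

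The start of DLGAP1-AS2, the silenced gene, lay in a region called in all 6 libraries (chr18:3603212-3604220). The height of its peak, the pileup of fragments that the authors give for each peak, was 29, 30 and 14 in the silenced libraries, and 21, 34 and 23 in the controls. Silenced replicate 3 was the lowest and control replicate 2 the highest, and the groups overlapped. Heights follow sequencing depth and are not tested between groups. The number of reads is not given, so depth is unknown. A stand-in for it, the lowest background coverage in each list, was 0.369, 0.402 and 0.237 in the silenced libraries and 0.380, 0.464 and 0.372 in the controls, so silenced replicate 3 was also lowest and control replicate 2 highest in that measure.

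The peak covered all 300 bases of the DLGAP1-AS2 promoter in 4 libraries. It covered 270 bases in control replicate 1 and 232 in silenced replicate 2, where the peak ended 19 bp before the start. Both AP-1 type matches lay within the peak in every library, since all 6 peaks began at or before position 3603415 and ended at or after 3603718. The fold enrichment over the local background, the authors' ratio for each peak, was 6.28, 6.08 and 5.40 in the silenced libraries. It was 4.47, 6.21 and 5.22 in the controls.

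Because the lists were made separately, fold enrichment was compared by rank. It was ranked within each list over the 37284 regions that all 6 lists contain, and the ranks were turned into normal scores, for which 0 is the middle region and higher values are stronger peaks. At the DLGAP1-AS2 start the scores were −0.40, −0.58 and −0.32 in the silenced libraries, and −1.16, −0.55 and −0.87 in the controls. All 6 were below the middle, and the groups overlapped because silenced replicate 2 lay below control replicate 2. The mean score was −0.433 ± 0.135 (SD, n = 3) after silencing, against −0.861 ± 0.306 (SD, n = 3) without it. The difference of 0.428 (SE 0.368) did not pass limma with Benjamini-Hochberg adjustment over all shared regions (unadjusted p = 0.259, adjusted p = 0.965).

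The far end of DLGAP1-AS2, at position 3610089, had no peak within 1 kb in any library. The nearest peaks began 2190 to 2277 bp beyond it, in a region called in all 6 libraries (chr18:3612279-3612709). Their heights were 18, 15 and 17 in the silenced libraries, and 27, 36 and 33 in the controls. Every control height was above every silenced one. The fold enrichment was 6.55, 5.00 and 8.04 in the silenced libraries and 8.81, 9.54 and 10.18 in the controls. These values did not overlap either. Heights follow sequencing depth, and the share of all shared regions that separate by height or fold enrichment was not counted.

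Ranked within the lists, the same region overlapped between groups. Its scores were −0.32, −0.92 and 0.42 in the silenced libraries, and 0.16, 0.27 and 0.40 in the controls. Silenced replicate 3, which had the lowest background coverage of all 6 libraries, had the highest score. The difference of silenced minus control was −0.548 (SE 0.329; limma, unadjusted p = 0.112, Benjamini-Hochberg adjusted p = 0.963). Without silenced replicate 3 it was −0.896 (limma unadjusted p = 0.0108, adjusted p = 0.965), and without silenced replicate 2 it was −0.223 (unadjusted p = 0.481). Ranked by p-value the difference was −0.626 (limma unadjusted p = 0.0317, adjusted p = 0.974). Ranked by height it was −0.437 (limma unadjusted p = 0.0425, adjusted p = 0.971). It was negative in all 10 alternatives, with adjusted p-values of at least 0.903. This region was 1 of 21 looked at in the window, and none passed the adjusted test.

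DLGAP1-AS1, the antisense gene before DLGAP1-AS2, had a start region (chr18:3593369-3594558) called in all 6 libraries. The heights were 40, 41 and 21 in the silenced libraries, and 39, 36 and 42 in the controls. Apart from silenced replicate 3 these heights lay between 36 and 42. The rank scores were 0.32, 0.31 and 0.35 in the silenced libraries and 0.33, −0.15 and 0.34 in the controls, so that control replicate 2 alone was below the middle. The difference was 0.153 (SE 0.255), which did not pass limma (unadjusted p = 0.557, adjusted p = 0.974). The far end of DLGAP1-AS1 had a peak within 1 kb in 3 libraries, with heights of 16 in silenced replicate 1, 16 in control replicate 2 and 15 in control replicate 3.

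DLGAP1-AS6, a further antisense gene (chr18:3653030-3656282), also had its starts under a peak in all 6 libraries (chr18:3652766-3653238). The heights were 34, 36 and 20 in the silenced libraries, and 34, 37 and 32 in the controls. The rank scores were −0.03, −0.08 and 0.14 in the silenced libraries and −0.27, −0.29 and −0.38 in the controls, so the groups did not overlap. The difference of 0.323 (SE 0.293) did not pass limma (unadjusted p = 0.285, adjusted p = 0.965).

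**Figure D1:**
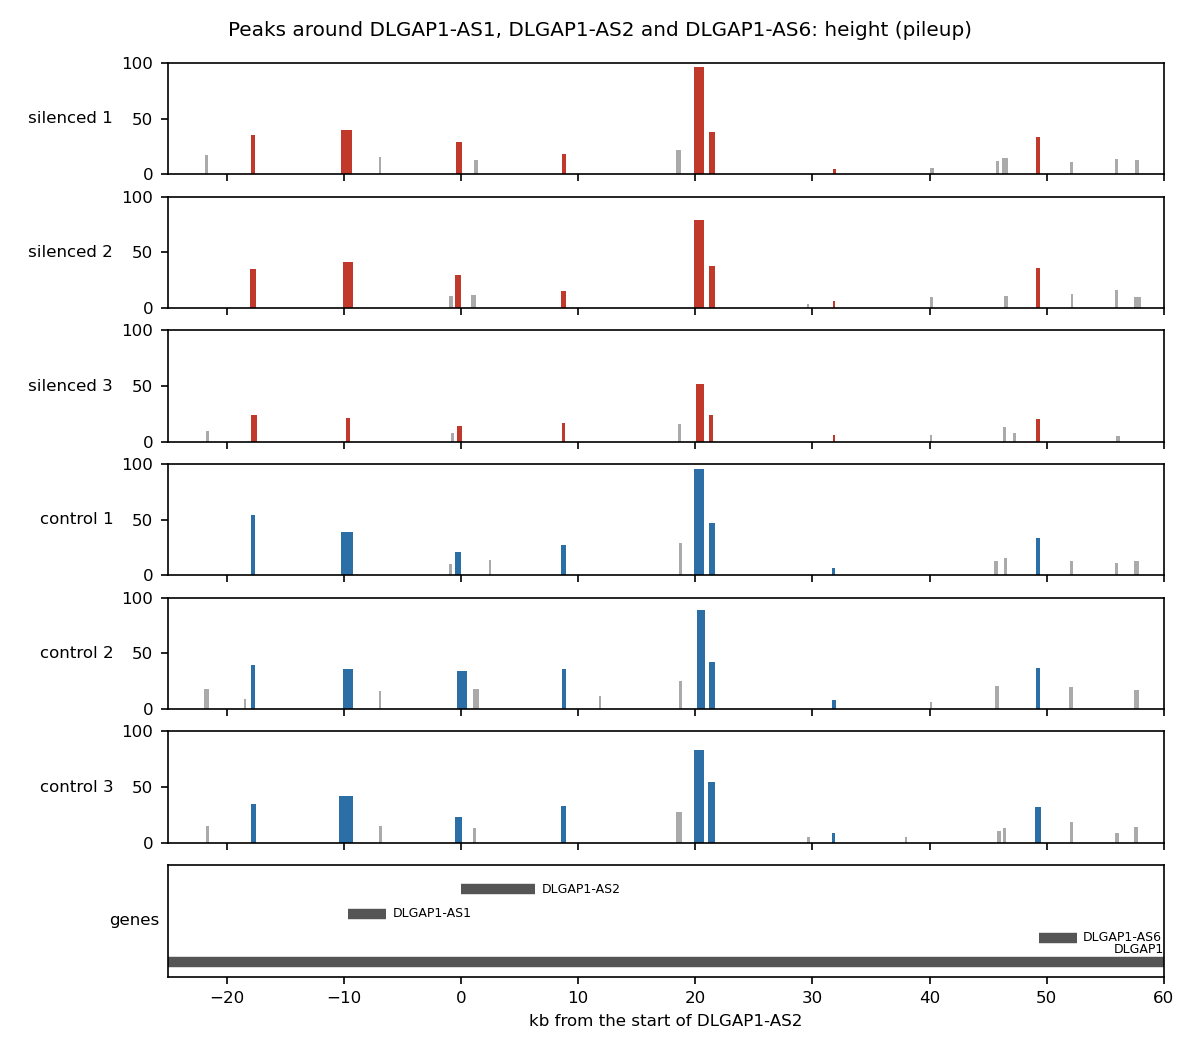
Height of each peak (vertical axis, pileup) from 25 kb before to 60 kb after the start of DLGAP1-AS2 (horizontal axis, kb), 1 panel a library, with red for silenced and blue for control libraries where the region was called in all 6 lists, grey for other peaks, and genes drawn beneath. Each library has a peak at or within 19 bp of the starts of DLGAP1-AS1, DLGAP1-AS2 and DLGAP1-AS6, and the tallest peak, 52 to 96 high, stands 20.4 kb after the DLGAP1-AS2 start where no antisense gene is drawn.

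DLGAP1 itself was marked at 1 of its ends. DLGAP1 runs on the minus strand, so the higher coordinate, 4455307, is the 5′ end of its full span. A region there (chr18:4454885-4455716) was called in all 6 libraries, with heights of 11, 6 and 6 in the silenced libraries, and 9, 10 and 6 in the controls. These heights are low beside those of the 3 antisense starts, and the groups overlapped. The rank difference was 0.253 (SE 0.400), which did not pass limma (unadjusted p = 0.535, adjusted p = 0.973). At the 3′ end, position 3496032, only control replicate 3 had a peak within 1 kb, of height 3 and 948 bp away.

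The promoter table lists 2 further DLGAP1 starts, at positions 3845358 and 3874760, and neither had a peak over its promoter in any library. The nearest peaks lay 2204 to 7075 bp from the first and 2536 to 4653 bp from the second. DLGAP1-AS4 and DLGAP1-AS5, antisense genes farther along, and the uncharacterised genes LOC124904238 and LOC124904239 likewise had no peak over their listed promoters in any library. This says that no peak was called there, not that the sites were closed.

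The microRNA gene MIR6718, which lies inside DLGAP1-AS3 and DLGAP1, was under a region called in all 6 libraries (chr18:3885156-3885726). Its 5′ arm is shown for its identity, from RefSeq (GRCh38.p14, chr18:3885363-3885383, plus strand), with the seed, bases 2 to 8, in capitals.
hsa-miR-6718-5p: uAGUGGUCagagggcuuauga

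The heights over MIR6718 were 22, 17 and 12 in the silenced libraries, and 20, 21 and 19 in the controls. The rank difference was −0.071 (SE 0.221), which did not pass limma (unadjusted p = 0.751, adjusted p = 0.982). The scores of all 6 libraries were above the middle, from 0.40 to 0.85.

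The tallest peak of the window in every library belonged to none of these starts. It lay 20.4 kb past the DLGAP1-AS2 start (chr18:3623593-3624582), inside DLGAP1, 13504 bp beyond the end of DLGAP1-AS2. Its height was 96, 79 and 52 in the silenced libraries, and 96, 89 and 83 in the controls. A second region followed it (chr18:3624812-3625458), with heights of 38, 38 and 24 in the silenced libraries and 47, 42 and 55 in the controls. The heights of this second region did not overlap between groups, but the share of all shared regions whose heights separate was not counted. Its rank scores did overlap, with a difference of −0.115 (SE 0.416; limma, unadjusted p = 0.786, adjusted p = 0.986).

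Measured by fold enrichment, the strongest region of the window was another one, 167.9 kb past the DLGAP1-AS2 start (chr18:3771274-3771974). Its fold enrichment was 16.91, 18.94 and 13.46 in the silenced libraries, and 19.14, 19.66 and 17.42 in the controls. It stood in the top 2.7% to 9.4% of shared regions in each library. The rank difference was −0.265 (SE 0.200; limma, unadjusted p = 0.201, adjusted p = 0.965), and the groups overlapped.

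**Figure D2:**
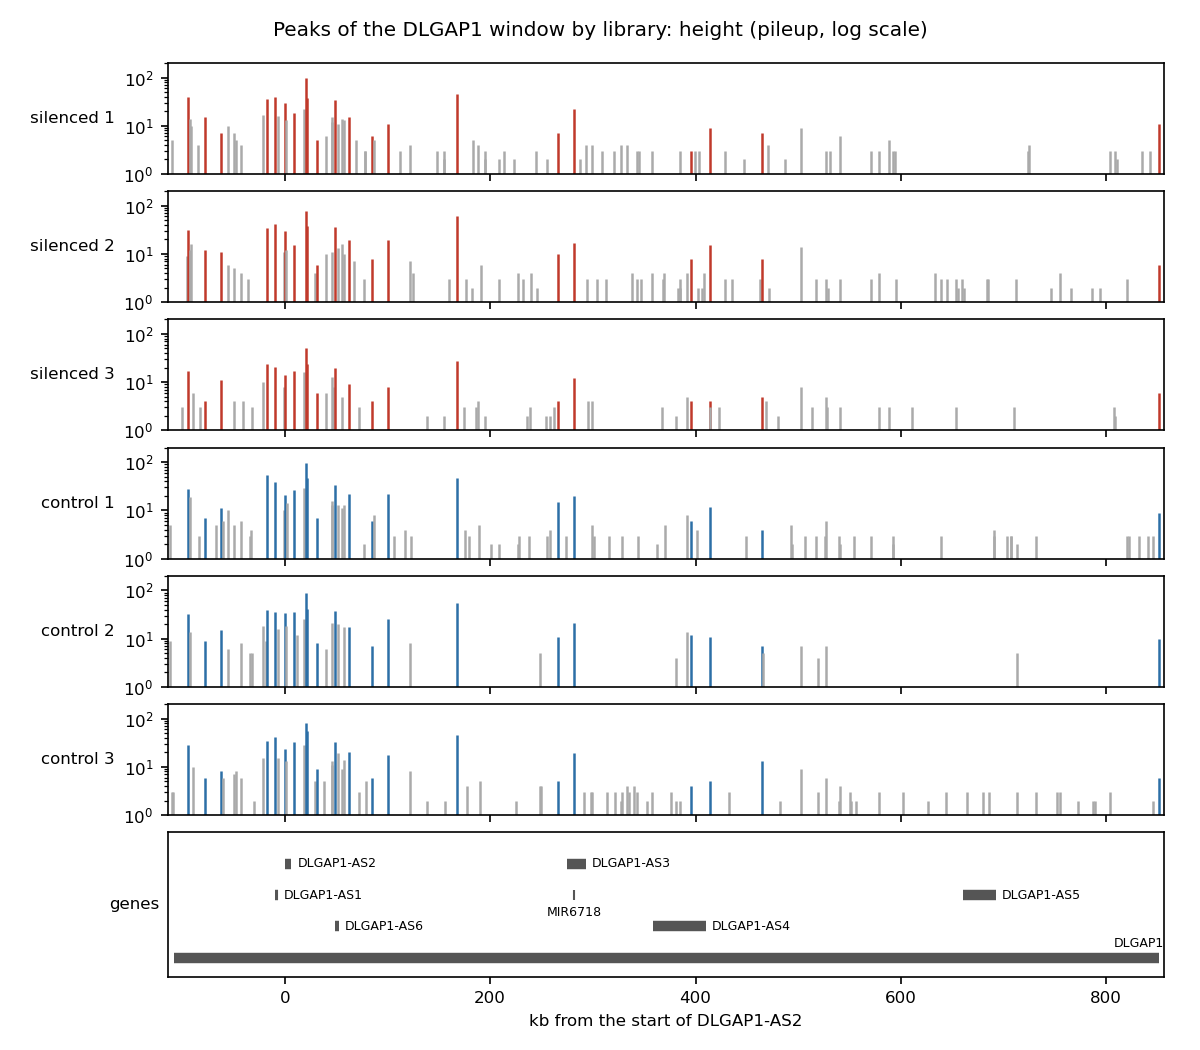
Height of each peak on a log scale (vertical axis, pileup) against the distance in kb from the DLGAP1-AS2 start (horizontal axis) over the whole window, 1 panel a library, with red for silenced and blue for control libraries where the region was called in all 6 lists, grey for other peaks, and genes drawn beneath. Coloured peaks crowd around 0, where DLGAP1-AS1, DLGAP1-AS2 and DLGAP1-AS6 start, and the panel of control replicate 2, with 48 peaks, lacks the low grey peaks of the others.

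Peaks recurred unevenly along DLGAP1. From the start of the window to the end of DLGAP1-AS6, 166.3 kb or 17.1% of its length, 50 regions were found, of which 11 were called in all 6 libraries and 18 in only 1. In the remaining 803.7 kb, 214 regions were found, of which 10 were called in all 6 and 171 in only 1. This division was made after the values were seen, so it has no test. The 97 kb from position 3587000, which contain DLGAP1-AS1, DLGAP1-AS2 and DLGAP1-AS6 and reach past that division, held 8 of the 21 regions called in all 6. The part from position 4072000 to 4362999 held none.

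The local background differed in the same way. The background behind a peak was computed from its height and fold enrichment and divided by the lowest background in its library. Its median was 6.94 times that floor in the part up to the end of DLGAP1-AS6 and 1 times in the rest, with highest values of 24.5 and 6.63. The median in the former part was 7.75, 7.13 and 5.65 in the silenced libraries, and 7.32, 6.88 and 6.91 in the controls. Silenced replicate 3 was lowest. At the tallest region the background was 17.2 to 24.2 times the floor, and at the DLGAP1-AS2 start 7.51 to 10.3 times. A fold enrichment there is thus measured against a raised local background. That background is known only where a peak was called, and the part of the peaks themselves in it was not tested.

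**Figure D3:**
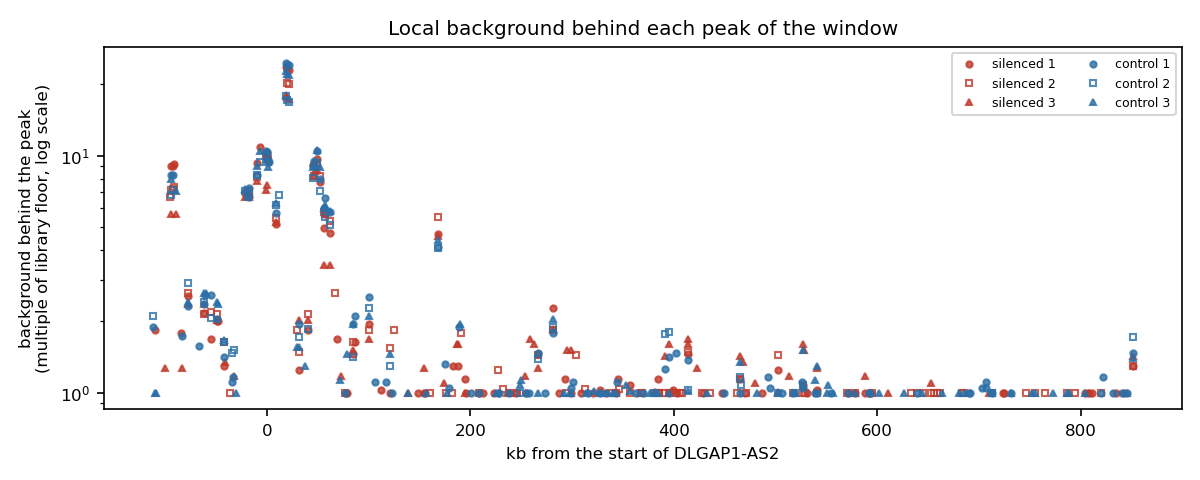
Background behind each peak as a multiple of the lowest background in its library (vertical axis, log scale) against the distance in kb from the DLGAP1-AS2 start (horizontal axis), with red for silenced and blue for control libraries and 1 marker shape a replicate. Values reach 17.2 to 24.2 about 20.4 kb past the start in all 6 libraries, and the median beyond DLGAP1-AS6 is 1.

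Most regions of the window appeared in a single library. There were 189 of these (71.6% of the 264, against 74.1% of all regions), with a median length of 200 bp, the shortest that the lists hold, and a median height of 3. The 21 regions called in all 6 libraries were 7.95% of the window, against 7.35% over the genome. They had a median length of 597 bp and a median height of 17. The 54 regions called in 2 to 5 libraries had a median length of 351.5 bp and a median height of 5. In 5 libraries 42.2% to 46.8% of window peaks were lower than 4, against 48.1% to 52.1% of the whole lists. In control replicate 2 none were, against 2.46% of its list.

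No region of the window was called in all 3 silenced libraries and no control library, against 0.13% of all regions. One was called in all 3 control libraries and no silenced library, which is 0.379% of the window, against 0.2% of all regions. It lay inside DLGAP1, 138519 bp from its 5′ end (chr18:4316394-4316788). Its heights were 2, 5 and 3 in the controls, with the authors' false discovery rates of 0.541, 0.00218 and 0.0886. The peaks were weak in control replicates 1 and 3. The count of such regions was 0 when peaks were limited to a false discovery rate of at most 1e-05, to a height of at least 4, to lists of equal length or to an overlap of at least 50%.

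The number of peaks in the window was 84.3 ± 14.4 (SD, n = 3) after silencing, against 78.0 ± 26.0 (SD, n = 3) without it. The difference of 6.33 was smaller than the spread (exact permutation, two-sided p = 0.8; adjusted p = 1 for the family of 4, where 3 libraries against 3 cannot give less than 0.1). Without control replicate 2, which has the shortest list and no window peaks lower than 4, it was −8.67. The covered length was 24.2 ± 4.58 kb (SD, n = 3) after silencing, against 23.6 ± 5.72 kb (SD, n = 3) without it (exact permutation p = 0.9). Its difference of 0.561 kb became −0.717 kb without silenced replicate 1, −0.801 kb without silenced replicate 2 and −2.74 kb without control replicate 2.

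Relative to the length of each list, the libraries were close. The window held 5.55, 5.66 and 5.60 of every 10000 peaks in the silenced libraries, and 5.38, 5.25 and 5.67 in the controls. Control replicate 3 was the highest and control replicate 2 the lowest, so the control range enclosed the silenced one. With heights limited to 4 or more the difference was 0.622, and without control replicate 3 it was 0.284, and both gave the smallest p that the exact permutation test allows, 0.1. The means were 5.60 ± 0.0522 (SD, n = 3) and 5.44 ± 0.215 (SD, n = 3), with an exact permutation p of 0.4. Peaks within 1 kb of an end of DLGAP1, DLGAP1-AS1 or DLGAP1-AS2 numbered 4, 5 and 4 in the silenced libraries and 4, 4 and 5 in the controls, a difference of 0 (exact permutation p = 1).

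Among the 21 regions called in all 6 libraries, 0 passed limma at an adjusted p under 0.05, as did 0% of the 37284 shared regions. With fold-enrichment ranks of all 6 libraries, 0 of the 21 were lower in silenced libraries at an unadjusted limma p under 0.05, against 2.7% of all shared regions. On the same terms 0 were higher, against 1.98%. The rank scores of the groups did not overlap, with silenced lower, in 0 of the 21, against 4.78% of shared regions. They did not overlap, with silenced higher, in 2 of the 21 (9.52%), against 5.39%. These were the DLGAP1-AS6 start and a region at −94.3 kb from the DLGAP1-AS2 start (chr18:3509160-3509797), whose scores were 0.32, −0.01 and 0.35 in the silenced libraries and −0.28, −0.04 and −0.15 in the controls. Both had adjusted p-values of at least 0.963 by limma.

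The differences over the 21 regions had a median of 0.101 and ran from −0.548 to 0.765, with 10 negative and 11 positive, against a median of 0.007 over all shared regions. The most positive, at chr18:3525806-3527016 inside DLGAP1, had scores of 0.11, −0.51 and −1.65 in the silenced libraries, and −1.33, −1.41 and −1.61 in the controls. The region held 1 peak in silenced replicates 1 and 2 and 2 peaks in every other library. Only the strongest peak of a library was scored, so the stretches compared can differ. In score, silenced replicates 1 and 2 were above every control and silenced replicate 3 below every control. Its difference did not pass limma (unadjusted p = 0.12, adjusted p = 0.963), and without silenced replicate 3 it was 1.249 (limma unadjusted p = 0.0108, adjusted p = 0.965). The smallest p of the window, 0.0575, unadjusted by limma, belonged to chr18:3703662-3704258, with a difference of −0.524 (SE 0.258). Its scores were −0.19, 0.60 and 0.02 in the silenced libraries and 0.70, 0.80 and 0.49 in the controls, and silenced replicate 2 lay within the control range. Without silenced replicate 2 the difference was −0.753 (limma unadjusted p = 0.0129, adjusted p = 0.759). It was negative in all 10 alternatives, from −0.753 to −0.356.

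**Figure D4:**
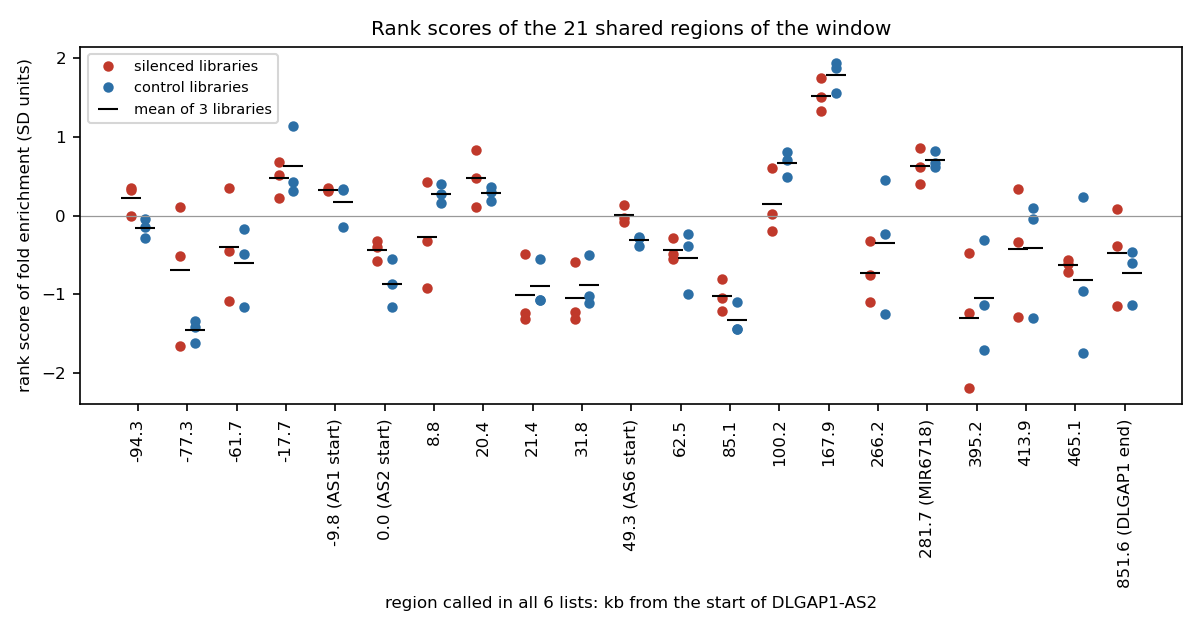
Rank score of fold enrichment (vertical axis, SD units, 0 is the middle of 37284 shared regions) for the 21 window regions called in all 6 lists, ordered by their distance in kb from the DLGAP1-AS2 start (horizontal axis), with red points for silenced libraries, blue for control libraries and a black line for each mean of 3. The colours overlap at all but 2 regions, the one at −94.3 kb and the DLGAP1-AS6 start, and the region at 167.9 kb is highest in each library.

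For a gene of its length, DLGAP1 carried many peaks. It held 9.28, 9.90 and 7.09 peaks per 100 kb in the silenced libraries, and 9.49, 4.90 and 9.59 in the controls, a mean of 8.37. Among the 119 other protein-coding genes whose span differed from that of DLGAP1 by at most 0.25 of its length, the median was 3.14, and the range 0.0225 to 9.37. By this mean only KCNMA1, which encodes a calcium-activated potassium channel, was above DLGAP1, at 9.37. By library, the order at the top varied: 1, 0 and 3 of the 119 genes were above DLGAP1 in the silenced libraries, and 1, 6 and 1 in the controls. The closest were CTNND2 (7.85), which encodes delta-catenin, CACNA1C (7.72), a calcium channel subunit, and CDH18 (7.59), a cadherin. DLGAP1 held 21 regions called in all 6 libraries, against a median of 3, and KCNMA1 was again the only gene above it, with 25.

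**Figure D5:**
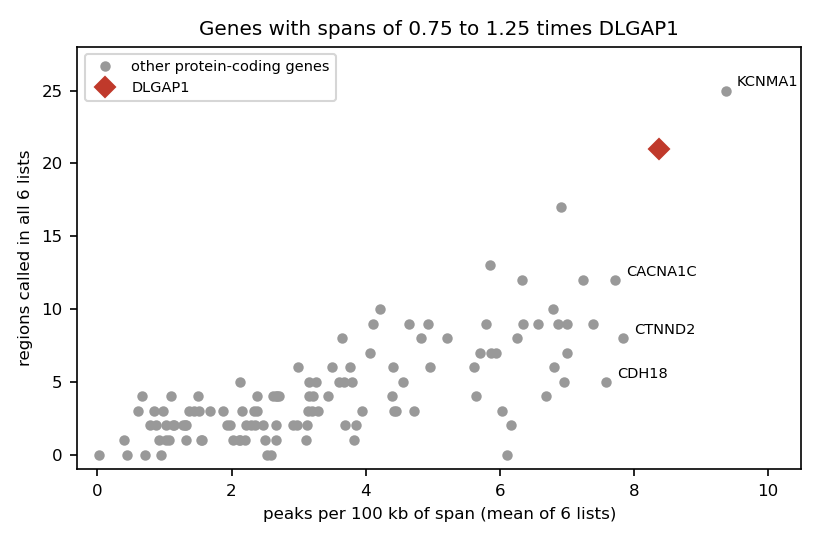
Regions called in all 6 lists (vertical axis, count) against peaks per 100 kb of span (horizontal axis, mean of 6 lists) for DLGAP1 (red diamond) and 119 other protein-coding genes of similar span (grey points). DLGAP1, at 8.37 and 21, lies below KCNMA1, at 9.37 and 25, and above all other genes on both axes.

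The window was also denser than its chromosome in each library. It held 92.8, 97.9 and 70.1 peaks per Mb in silenced and 94.8, 49.5 and 96.9 in the controls. Chromosome 18, from its first to its last peak, held 59.98, 61.9 and 44.2 in the silenced libraries and 62.4, 29.0 and 62.0 in the controls. The window's peaks with a false discovery rate of at most 1e-05 numbered 20, 23 and 13 in the silenced libraries and 19, 24 and 18 in the controls. They were 19.1% to 24.2% of the window's peaks in 5 libraries, where the whole lists had 20.2% to 22.0%, and 50.0% in control replicate 2, where the list had 40.9%.

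Scaffold partners of DLGAP1, direct or through SHANK, were examined at their gene ends, where a peak within 1 kb can also belong to a neighbouring gene. Of 12 genes for DLG, SHANK, HOMER and dynein light chain proteins, 9 had such a peak in all 6 libraries, against 59.9% of all protein-coding genes. At DLG4, which encodes PSD-95, the heights were 46, 44 and 21 in the silenced libraries and 37, 58 and 50 in the controls. DLG3, SHANK2 and HOMER3 varied between libraries. Among the DLGAP paralogues only DLGAP5, a mitotic spindle protein, had one in all 6 libraries, with heights of 67, 73 and 52 in the silenced libraries and 72, 77 and 70 in the controls. DLGAP2 had one in 1 library, DLGAP3 in 5 and DLGAP4 in 2.

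Of 36 genes in or within 500 kb of the window, 13 had an end peak in all 6 libraries and 7 in none. Over all genes of every type in the table, 29.9% had one in all 6. LPIN2, a phosphatidic acid phosphatase outside the window, had heights of 25, 30 and 10 in the silenced libraries and 33, 37 and 36 in the controls, without overlap. Silenced replicate 3, the library with the lowest background coverage, was far lowest, and the part of depth in this difference was not tested. The heights at this gene end were not tested between groups, and no rank score is given for it. The share of the 36 genes, or of all genes, whose end heights separate was not counted. TGIF1, a transcriptional repressor, had 9, 9 and 5 in the silenced libraries and 10, 11 and 6 in the controls, with overlap.

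The labelled cell type was checked at the ends of marker genes, to be read against the 59.9% of protein-coding genes with an end peak in all 6 libraries. Of 7 squamous markers only SOX2 had a peak in all 6 libraries, and KRT6A had none. TP63 had one in 4 libraries, KRT5 and DSG3 in 2, and KRT14 and PKP1 in 1. Summed heights over the 7 were 27, 29 and 12 in the silenced libraries and 24, 28 and 20 in the controls. Of 5 alveolar markers 4 had a peak in all 6 libraries, among them NKX2-1 and SFTA3, which share one. Such a peak can also belong to a neighbouring gene. No peak overlapped SFTPC itself in silenced replicates 1 and 3, nor SFTA3 itself in control replicate 2, so their end peaks there lay outside the gene. SFTA3 is listed as a long non-coding RNA gene, so the share of protein-coding genes does not apply to it. With the shared peak counted once, the summed heights of the 5 alveolar markers were 26 to 59 in the silenced libraries and 44 to 54 in control libraries. Of 5 neuroendocrine markers 2 had a peak in all 6, with CHGA at 0. Of 4 blood markers 1 did, SPI1, with CD79A at 0, and of 4 neuronal markers 3 did, with RBFOX3 at 0. Accessibility of a gene end does not measure expression. The few squamous marker peaks, with none within 1 kb of an end of KRT6A, are thus given only as a measurement beside the label.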

How the data were processed

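ATAC-seq libraries from NCI-H1703 cells (3 with silenced DLGAP1-AS2, 3 controls) were analysed from 1 deposited peak list a library. Per the file headers, each peak has a fold enrichment (a ratio), a p-value and false discovery rate, and a pileup signal, here the height. These are the authors' values; each served only for describing, ranking or filtering within its own list. The submitters' processing notes name Trimmomatic 0.36, Bowtie2 2.2.6, Picard 2.8.2, MACS2 2.1.1, bedtools 2.25.0 and the build GRCh38, without role or order. Parameters, duplicate removal and any shift for the transposase offset are not given in the sources used here. The largest deposited p-value was 0.00987.

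Peaks on assembled chromosomes were merged at an overlap of at least 1 bp. Genes and promoter sequences came from RefSeq tables of GRCh38.p14. Exons and introns were not analysed here. The background behind a peak is (height + 1) / fold enrichment − 1. Values per library were compared by two-sided exact permutation tests. Normal scores of fold-enrichment ranks were compared by limma 3.58.1 in R 4.3.3 (mean-dependent prior, Benjamini-Hochberg threshold 0.05). The limma procedure was tried on simulated scores only with shifts larger than any difference in the window. Its ability to find smaller shifts was not tested. Python 3.11.15, pandas 2.3.3, numpy 2.4.6 and matplotlib 3.10.9 were used.

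Named were the 3 members, genes in or within 500 kb of the window, DLGAP paralogues, binding partners, marker genes, the nearest genes by likeness, and window regions called in all 6 lists, in 1 group only, or at a member's end. Members and lists were chosen with earlier results of these data known. Alternatives were a stricter false discovery rate, lists of equal length, the DLGAP1 span alone, another overlap or distance limit, ranking by p-value or height, a replicate block and leaving out each library. A height of at least 4, and leaving out silenced replicate 3 with control replicate 2, were added after seeing the data.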

Additional observations from a re-analysis of the deposited data

How the results depend on the processing

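Read numbers are unknown, and with 3 libraries a group no exact test could fall below 0.1. The number of window peaks (silenced minus control, 6.33) was −1.67 at a false discovery rate of at most 1e-05, was −2 with heights limited to 4 or more, and ran from −8.67 to 14.5 when libraries were left out. The covered length (0.561 kb) was −0.657 kb at that rate, −0.0217 kb with equal lists and −0.808 kb with that height limit, and ran from −2.74 to 3.203 kb when libraries were left out. Leaving out silenced replicate 3 and control replicate 2 together gave −0.5 peaks and −0.1 kb. Peaks near member ends differed by −1.33 with a limit of 5 kb. Regions called only in control libraries numbered 0 under the stricter rate, the height limit, equal lists and the 50% overlap, and 1 to 3 when libraries were left out. Those called only in silenced libraries numbered 0 to 3 when libraries were left out. The cause of these changes was not tested, apart from the fewer libraries required in the last.

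Counting only the DLGAP1 span gave 7.33 peaks, 0.905 kb and 0.241 per 10000. Window peaks per 10000 differed by 0.0740 to 0.622 over 12 alternatives (exact p of 0.1 to 1), and the rank difference at the DLGAP1-AS2 start by 0.137 to 0.583 over 10, with adjusted limma p-values of at least 0.84. The count of changed ranks was 0 in all 10. At an unadjusted limma p under 0.05, 1 window region passed when ranked by p-value and 1 when ranked by height. Without silenced replicate 2, 1 passed, and without silenced replicate 3, 2 passed, as did 2 without silenced replicate 3 and control replicate 2. None did in the other alternatives. The share of all shared regions at that limit was not counted for these settings. The rank scores of same-numbered libraries did not deviate together (correlations −0.00196, 0.00238 and −0.00829). Ranking within each list removes shifts of a whole library, so these values cannot decide whether same-numbered libraries were prepared together. A replicate block left the differences at 6.33 peaks, 0.561 kb, 0.165 per 10000, and 0 end peaks, with exact paired p-values of 0.5 to 1 (smallest possible 0.25). It left the rank difference at 0.428 (limma, adjusted p = 0.975), and it changed no call.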

Other observations

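The protein-coding genes whose 6 rank scores at a gene end were most like those at the DLGAP1-AS2 start were LETM2 and NSD3, which share 1 region, and ATP5MG. The mean absolute difference of their scores from those of DLGAP1-AS2 was 0.103 for the shared region and 0.107 for ATP5MG, over 6 libraries and among 11949 genes. The scores at the shared region were −0.42, −0.61 and −0.19 in silenced and −0.80, −0.56 and −0.80 in control replicates 1, 2 and 3, which overlap. The scores at ATP5MG, a subunit gene of the mitochondrial ATP synthase, were −0.46, −0.62 and −0.28 in silenced and −1.10, −0.97 and −0.89 in control replicates 1, 2 and 3, which do not overlap, as in 5.39% of all shared regions with silenced higher. Genes were picked for this likeness, so the values are a description.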
